A study of Manihot esculenta with 44 samples.

Results

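The seasonal change in leaves of field-grown cassava (Manihot esculenta) was measured in Hanoi, Vietnam, by setting libraries of 10 October 2019 against libraries of 24 May 2019. The comparison holds 8 of the 44 libraries of the series, 4 for each date, and the samples were chosen by the site and date in their titles. All plants were of KU50, a starch cassava variety, raised in the field from woody stem cuttings with NPK fertiliser, and leaf was stored in RNAlater before total RNA was extracted and sequenced. The series treats Hanoi as an ordinary field site without flowering, and the parallel comparison of 5 October with 31 May came from Bac Kan, its mountain site with flowering. The 2 other Hanoi dates, 13 July and 7 August, were used to place each change within the season. A second label field gave the date of the title for 2 of the 8 libraries and other dates or the other site for the rest, so the dates rest on the titles and on the tables named after them. The hour of sampling, the age of the leaf and the identity of the plant are not given in the sources used here. Date, hour and leaf age therefore cannot be told apart. The p values of genes measure the spread between libraries of a group, pooled over the 11 groups of site and date, and this spread may be technical. Hanoi libraries of 24 May spread most, with a median SD over genes of 0.52 on the log2 scale beside 0.30 to 0.42 in the other groups. The pooled spread thus tends to understate that of May.

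A cassava leaf stores part of its daily carbon as starch in the chloroplast and degrades it at night to maltose and glucose, which feed sucrose export through the phloem to the storage roots. Heat and other protein-damaging stress switch on heat stress transcription factors, which raise small heat shock proteins and the larger chaperones. The circadian clock, built from morning and evening transcription factors that repress each other, times many of these pathways and carries day-length information to the CONSTANS family.

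Levels below are FPKM summed over the transcripts of a gene and rescaled to a total of 1000000 in each library. Library numbers 1 to 4 are the places of the columns in the table of a date. A ± after a level is the SD of 4 libraries and a ± after a log2 difference is its SE. Log2 differences are on the log2(value + 1) scale, October minus May, which understates the change of low genes. A call is a limma p below 0.05 after Benjamini-Hochberg adjustment over the 23405 genes tested. Genes carry the name of their Arabidopsis best hit, which does not separate close copies, and the roles given are those known in Arabidopsis. The largest changes and the list members named by rule had to be called with separated libraries. Their calls and separation are therefore conditions of naming, not results. Lists were divided into roles after values were seen, so counts by role are descriptive.

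Of the 23405 genes tested, 5924 (25.3%) were called higher in October and 4028 (17.2%) were called lower, 42.5% in all. The calls reached an absolute log2 difference of 1 or more for 3969 genes that rose and 2793 that fell. For 7928 genes (33.9%) the 4 libraries of one date all lay above the 4 of the other, 20.4% of genes higher and 13.4% lower in October, while 2551 of the calls had overlapping libraries. The median log2 difference over all genes was 0.13, and with median-ratio scaling it was 0.02. With the 8 libraries alone in the fit 7723 genes (33.0%) were called, 7414 of them shared with the fit over all 44 libraries. For the DPE2 homologue (MANES_08G162200) the adjusted p was 6e-06 with the 8 libraries and 1.9e-19 in the fit over all 44.

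The libraries of the 2 dates also differed as wholes. Deposited FPKM summed to between 713853 and 758248 in May and between 705174 and 736725 in October. Read totals are unknown, and the relative depth estimated from the spacing of low values was 0.722 to 1.04 in May and 1.33 to 1.63 in October (exact permutation test, two-sided p = 0.0286, the smallest that 4 against 4 allows). The 10 most abundant genes held 13.2 to 15.3% of the total in May and 7.77 to 8.34% in October, and 18275 to 19140 genes in May and 19231 to 19406 in October stood at 1 or more, both at that same smallest p. The May libraries were less alike, with a median SD over genes of 0.52 on the log2 scale against 0.30 in October. Summed markers of leaf mesophyll were 9941 to 13893 in May and 13418 to 15332 in October, with 3 of 10 tested higher and 3 lower. They were abundant at both dates, which does not by itself test the tissue label of leaf. Xylem markers summed to 28.7 to 44.7 in May and 49.0 to 61.6 in October, although 2 of 22 were called higher and 4 lower. Phloem companion cell markers summed to 122.5 to 179.3 in May and 32.2 to 39.7 in October, with 9 of 13 tested lower and none higher. Guard cell markers summed to 55.7 to 86.8 in May and 38.0 to 49.1 in October, with 4 of 8 lower and none higher. Cell proliferation markers summed to 45.7 to 79.6 in May and 30.5 to 44.3 in October, with 5 of 22 lower and none higher. That share of 22.7% is near the 17.2% lower over all genes, and the number called lower ran from 0 to 7 under other processing. Flower organ markers summed to 27.6 to 59.8 in May and 55.9 to 78.0 in October (exact permutation test, p = 0.086), with 4 of 10 higher and none lower. The number called higher ran from 2 to 5 under other processing, and the median of 0.56 was 0.0 on the FPKM as deposited. The part of depth, spread and marker levels in the results below was not tested. In bulk leaf, fewer cells of a type and less RNA per cell cannot be told apart.

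Over the 4 Hanoi dates 11793 genes (50.4%) changed by limma's F test, among them 8956 of the 9952 seasonal calls. Between 24 May and 13 July 2371 genes (10.1%) rose and 3300 (14.1%) fell. Between 13 July and 7 August 1726 (7.37%) rose and 492 (2.1%) fell, and from 7 August to 10 October 2425 (10.4%) rose and 1908 (8.15%) fell. Genes that fell over the season had covered a median of 61.6% of their log2 change by 13 July and 54.7% by 7 August. Genes that rose had covered a median of 32.6% by 13 July and 57.5% by 7 August. No step was called in the same direction for 2282 of the 5924 genes that rose and 1066 of the 4028 that fell.

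**Figure D1:**
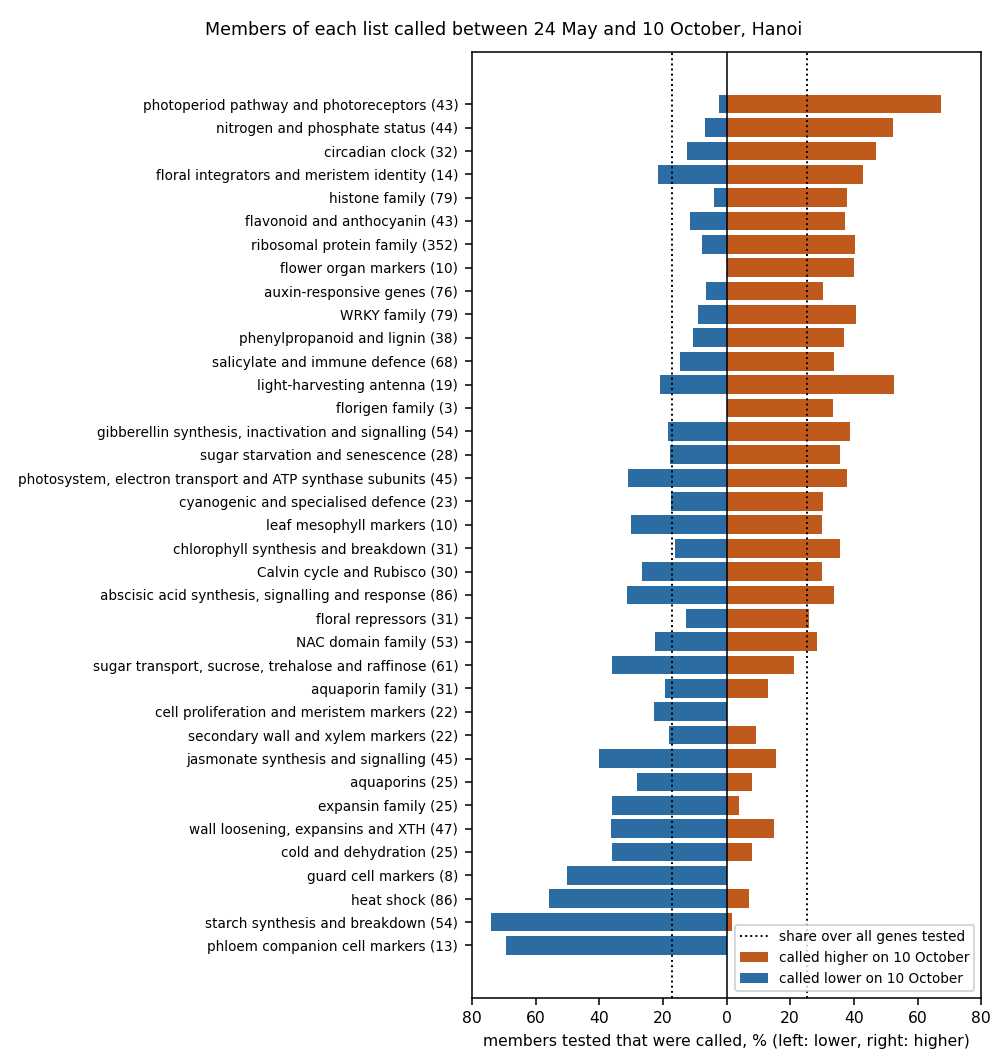
Share of the tested members of each gene list called higher (right, orange) or lower (left, blue) on 10 October than on 24 May in Hanoi, in percent, with the number tested in brackets and lists ordered by their median log2 difference. The dotted lines are the shares over all genes, 25.3% higher and 17.2% lower. Starch (40 of 54), heat shock (48 of 86) and phloem markers (9 of 13) extend furthest to the left, and the photoperiod list (29 of 43) furthest to the right.

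The largest rises were in genes close to absent in May. The BFT homologue (MANES_14G027800), a relative of the flowering signal FT, was listed at 0 in the 4 May libraries and stood at 125, 237, 220.1 and 150.0 in October (adjusted p = 1.1e-15). It stayed below 1 on average in July and August, so it appeared after 7 August. A lipid transfer protein gene, the LTP3 homologue (MANES_S095100), stood at 0.684, 0, 0 and 0 in May and 102, 101, 212 and 181 in October. The CYP82C4 homologue (MANES_12G048600), a cytochrome P450 of the coumarins made under iron shortage in Arabidopsis, rose from 2.32, 1.69, 3.41 and 0.237 to 184, 182, 198 and 239.7. This was a 105-fold rise (log2 difference 6.25 ± 0.51, adjusted p = 1.2e-12). The CPuORF9 homologue (MANES_14G094100) had the largest fitted rise, 7.94 ± 2.22, with May values of 0, 0, 158 and 0 and October values of 707, 1123, 546 and 1321. It was listed at 0 in 3 May libraries and present in 1, with an adjusted p of 0.0037. The fitted rise was 9.77 without May library 3 and 7.33 without any other May library. Receptor-like proteins filled 5 of the 12 places of the largest rises. They were 2 homologues of RPP27, a downy mildew resistance gene, 2 of AtRLP9 and 1 of AtRLP21, with October means of 72.4 to 213.9 and May means of 0.31 to 3.61. Such genes lie in families of close copies, so each single value is uncertain.

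The largest fall was that of the SPL5 homologue (MANES_03G106900), a squamosa promoter binding transcription factor of the kind that microRNA156 restrains in Arabidopsis. It stood at 608, 995, 918 and 717 in May and at 4.23, 6.46, 7.65 and 8.48 in October, 121-fold lower (log2 difference -6.72 ± 0.35, adjusted p = 1.1e-17). The fall ran through 214 ± 63.3 in July and 60.4 ± 16.2 in August. The RD22 homologue (MANES_06G160100), a dehydration-responsive BURP-domain gene, followed the same order, from 144, 247, 289.9 and 192 in May through 36.2 ± 7.56 and 15.97 ± 11.1 to 0.832, 4.64, 3.22 and 1.42 in October (adjusted p = 2.6e-16). The EDL3 homologue (MANES_05G073600), an F-box protein of abscisic acid responses, was already low in July. Its May values were 172, 297, 268 and 337, its July mean was 4.46 ± 3.73 and its October values were 3.74, 4.22, 1.13 and 1.36 (log2 difference -6.29 ± 0.48, adjusted p = 2.3e-13). A beta-glucosidase, the BGLU17 homologue (MANES_07G027800), stood at 61.6, 66.1, 88.6 and 71.5 in May and 0, 0.383, 0.435 and 0 in October. The 12 largest falls also held 2 HSP90.1 homologues, HSFA2 and ATBAG5, which are described with the heat shock genes, and 2 arabinogalactan proteins.

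Most starch genes were lower in leaves of the later date. Of 59 matched genes 54 were tested, 40 were lower in October and 1 was higher, and their median log2 difference was -1.34 beside 0.13 over all genes. Their summed level was 3194, 3335, 3557 and 3281 in May and 1178, 1318, 1325 and 1326 in October, and the July (2574 to 2680) and August (2050 to 2211) libraries lay between them. No library of any date overlapped with one of another date. Synthesis and breakdown fell together, with 17 of 24 synthesis genes (median -1.20) and 23 of 30 breakdown genes (median -1.62) lower. Synthesis genes fell at the first step (11 lower, 3 higher) and the last (11 lower), and breakdown genes mainly at the first (17 lower, 1 higher) and then the last (8 lower, 3 higher). In the starch and heat shock accounts only DPE2, SBE2.2, PHS1, HSP90.1, HSFA2, HSFA6B and ATBAG5 come from the rule for named genes, and the others were chosen after their values were seen.

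Among synthesis genes, the SBE2.2 homologue (MANES_08G022400), a starch branching enzyme, stood at 139, 189, 211 and 208 in May and 13.7, 31.2, 20.2 and 25.8 in October. This was a fall of 8.21-fold (log2 difference -3.02 ± 0.20, adjusted p = 8e-15). The ADG1 homologue (MANES_12G067900), the small subunit of ADP-glucose pyrophosphorylase that makes the glucosyl donor, fell from 641, 624, 736 and 515 to 149.7, 162, 186 and 197 (log2 difference -1.85 ± 0.15). Plastid phosphoglucomutase, which supplies glucose 1-phosphate, fell likewise: the PGM homologue (MANES_06G141300) stood at 123, 99.9, 116 and 103 in May and 26.2, 21.9, 28.2 and 32.2 in October (log2 difference -1.996 ± 0.13). Granule-bound starch synthase, the enzyme of amylose, moved least of these. The GBSS1 homologue (MANES_02G001000) stood at 399, 313, 327 and 283 in May and 226, 265, 229.7 and 250.2 in October, 1.36-fold lower (adjusted p = 0.00077).

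Among breakdown genes, the DPE2 homologue (MANES_08G162200), the cytosolic enzyme that uses the maltose released at night, was tightly placed at both dates. It stood at 192, 206, 189 and 192 in May and 9.16, 12.9, 9.93 and 12.8 in October, 17.4-fold lower (log2 difference -4.02 ± 0.18, adjusted p = 1.9e-19). July (110.0 ± 10.7) and August (107 ± 13.2) had close means, between those of the first and last dates. The plastid phosphorylase, the PHS1 homologue (MANES_S110800), stood at 66.7, 96.8, 90.9 and 108 in May and 13.2, 16.4, 7.79 and 12.7 in October, and a close copy elsewhere in the genome makes its own level uncertain. A plastid alpha-amylase, the AMY3 homologue (MANES_05G097100), fell from 122, 90.9, 85.5 and 86.8 to 18.5, 23.8, 22.2 and 24.1, and the PWD homologue (MANES_05G194300), which phosphorylates starch before its breakdown, from 51.5, 60.4, 64.2 and 62.2 to 12.8, 15.0, 11.3 and 15.4. Both kept most of their level until August (73.0 ± 5.99 and 55.5 ± 6.16) and differed by -2.06 ± 0.15 and -2.06 ± 0.15 on the log2 scale over the season. The beta-amylases, which release maltose, did not move together. The BAM1 homologue (MANES_03G155800) fell from 46.2, 107, 92.0 and 145 to 32.5, 20.8, 20.2 and 17.5 (adjusted p = 1.4e-06), and the BAM3 homologue (MANES_15G171200) stood at 66.2, 73.0, 61.9 and 69.2 and 49.8, 70.6, 85.3 and 55.1, a log2 difference of -0.08 ± 0.19 (adjusted p = 0.77). The 1 starch gene called higher, the BAM9 homologue (MANES_03G191000), is a beta-amylase relative without catalytic activity in Arabidopsis. It stood at 18.4, 6.55, 18.25 and 16.8 in May and 26.7, 25.9, 31.6 and 28.0 in October (log2 difference 0.95 ± 0.30, adjusted p = 0.01), and this call was lost when only the 8 libraries were fitted (adjusted p = 0.0504) or May library 2 was left out (adjusted p = 0.0926).

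**Figure D2:**
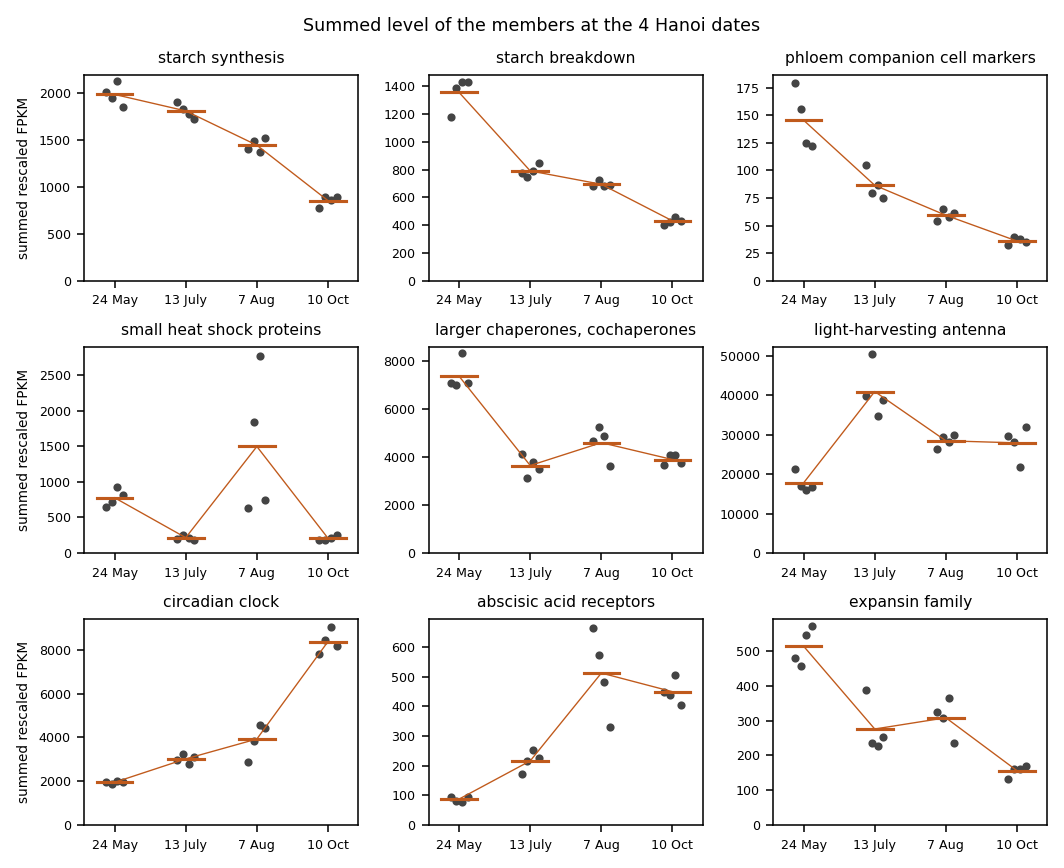
Summed level of the matched members of 9 gene groups in each library (dots) at the 4 Hanoi dates, in rescaled FPKM, with the mean of 4 libraries as a bar and a line joining the means. Starch synthesis, starch breakdown and phloem marker sums fall at each date, small heat shock proteins are high in May and August and low in July and October, and the clock sum rises to 7808 to 9050 in October.

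Heat shock genes were lower in October for 48 of the 86 tested and higher for 6, with a median log2 difference of -1.19. The course over the dates was not one-way: 49 were lower on 13 July than on 24 May, 23 rose again by 7 August and 27 then fell by 10 October. The small heat shock proteins, which hold unfolding proteins in solution, were lower for 17 of 29 and higher for none (median -2.24). Their summed level was 649 to 922 in May, 188 to 257 in July, 638 to 2772 in August and 184 to 250 in October, and the 4 August libraries spread more than 4-fold. The HSP17.6II homologue (MANES_16G083600) shows this course, at 71.7, 118, 135 and 114 in May, 23.4 ± 11.3 in July, 713 ± 547 in August and 4.28, 1.77, 4.52 and 4.86 in October. Its May and October libraries did not overlap (log2 difference -4.53 ± 0.45, adjusted p = 1.9e-10).

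Of the larger chaperones and cochaperones 24 of 36 were lower and 4 higher. The HSP90.1 homologue (MANES_06G152800), a cytosolic HSP90 induced by heat, stood at 167, 181, 340.0 and 261 in May and 2.56, 3.08, 2.86 and 2.82 in October, 83.9-fold lower (log2 difference -5.90 ± 0.52, adjusted p = 8.7e-12). It had fallen to 10.1 ± 5.01 in July and stood at 121 ± 65.2 in August. A second copy, MANES_14G022300, fell from a mean of 235 ± 69.5 to 5.22 ± 1.86. The BAG6 homologue (MANES_01G250800), a cochaperone of the BAG family, stood at 665, 745, 941 and 778 in May and 81.7, 87.4, 84.99 and 81.8 in October, with July at 267 ± 55.0 and August at 779 ± 318. DnaJ proteins of the J2 kind split. Homologues MANES_04G063000 and MANES_11G099500 were lower, by log2 differences of -2.30 and -3.91, and MANES_10G060800 rose from 618, 588, 706 and 569 to 968, 1189, 1086 and 936 (log2 difference 0.75 ± 0.11, adjusted p = 4.5e-07). Among the heat stress factors 6 of 19 fell and 2 rose. HSFA2, the factor that prolongs the heat response, fell from 22.7, 70.5, 84.2 and 102 to 0.226, 0, 1.19 and 0 in MANES_03G049500 (log2 difference -5.60 ± 0.59, adjusted p = 7e-10), and 2 of its October libraries were listed at 0. The HSFA6B homologue (MANES_01G204200) fell from a mean of 78.3 ± 27.8 to 2.51 ± 1.41. The ATBAG5 homologue (MANES_13G007700), a BAG cochaperone outside the list, varied widely in May at 10.3, 275, 63.4 and 134 and stood at 0.387, 3.24, 0.408 and 0.494 in October (log2 difference -5.27 ± 0.75, adjusted p = 4e-07), with differences of -6.16 without May library 1 and -4.62 without May library 2.

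More clock and photoperiod genes rose than fell. Of 43 photoperiod genes 29 were higher and 1 lower (median 1.06), and of 32 clock genes 15 were higher and 4 lower (median 0.65). The summed clock level was 1871 to 1990 in May and 7808 to 9050 in October, and much of it was CCR2, an RNA-binding protein under clock control. The CCR2 homologue (MANES_15G163200), chosen after its values were seen, stood at 1150.0, 1124, 1111 and 1090.0 in May and 5933, 6462, 7131 and 6323 in October (log2 difference 2.53 ± 0.26, adjusted p = 2.3e-10). The morning factor LHY rose in both copies. MANES_05G015600 stood at 29.7, 20.8, 9.82 and 20.2 in May and 277, 283, 253 and 254 in October (13.2-fold, log2 difference 3.75 ± 0.24, adjusted p = 1.9e-15), and MANES_01G239000 rose by 4.04 ± 0.28. July (80.02 ± 15.0) and August (88.5 ± 23.8) lay between without reaching either date. Its relative RVE1 (MANES_01G123100) rose by 4.24 ± 0.55.

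The pseudo-response regulators, which repress the morning factors, did not move as one. The PRR5 homologue (MANES_05G016200) rose from 13.5, 4.41, 10.6 and 9.37 to 96.8, 108, 110.0 and 77.3, while the PRR7 homologue (MANES_07G105100), chosen after its values were seen, fell from 29.6, 49.0, 28.6 and 33.3 to 7.07, 5.18, 11.5 and 5.29 (log2 differences 3.32 ± 0.25 and -2.16 ± 0.28, adjusted p = 1.7e-13 and 5.1e-08). The 2 TOC1 homologues, evening members of the same family, differed by -0.64 ± 0.27 (MANES_06G089800, adjusted p = 0.056) and -0.63 ± 0.24 (MANES_14G081500, adjusted p = 0.034), and the second call was lost under 8 of 17 alternatives. These were the fit of 8 libraries (adjusted p = 0.213), group weights (0.0535) and leaving out May library 1, 2 or 4 or October library 1, 2 or 4 (0.0721 to 0.146). For the first, adjusted p was below the threshold under 7 alternatives. GI (MANES_18G095000), an evening clock gene of the photoperiod pathway, had a mean of 54.8 ± 18.8 in May and 54.6 ± 15.5 in October, a log2 difference of 0.01 ± 0.18. CO (MANES_01G024100), the day-length factor, was listed at 0 in the 4 May libraries and stood at 3.68, 3.63, 1.46 and 6.26 in October (adjusted p = 0.00073). Its relative COL2 rose further: MANES_02G062700 stood at 0, 1.67, 1.86 and 0 in May, 6.83 ± 2.16 in August and 68.1, 62.4, 65.0 and 44.9 in October (adjusted p = 2.3e-13). The CDF3 homologue (MANES_06G091600), a DOF factor that represses CO in Arabidopsis, rose by 3.85 ± 0.37.

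Genes of the floral transition were present in these leaves of non-flowering plants, and 6 of 14 integrator and meristem identity genes rose while 3 fell. One SOC1 homologue (MANES_05G041900), a MADS-box integrator, stood at 48.6, 15.9, 23.3 and 38.0 in May and 231, 244, 267 and 213 in October (log2 difference 3.001 ± 0.22, adjusted p = 5.6e-14), but its most abundant transcript alone was not called (adjusted p = 0.295). Another SOC1 homologue, MANES_01G263500, was not called in the fit over all 44 libraries. Leaving out May library 1 gave it a log2 difference of 0.77 ± 0.31 (adjusted p = 0.0477). Within the SPL factors SPL5 fell as given above while SPL4 (MANES_13G144400, chosen after its values were seen) rose by 2.23 ± 0.15. The 2 FT homologues tested stayed near 0, with MANES_12G001600 listed at 0 in the 16 Hanoi libraries. In Bac Kan, from 31 May to 5 October, all 3 florigen family genes tested were called higher. The log2 differences there were 2.825 for MANES_12G001600 (adjusted p = 0.0053), 2.89 for MANES_13G000800 (adjusted p = 0.0024) and 4.89 for BFT (adjusted p = 1e-09). The Hanoi change was above that of Bac Kan for 1 of the 3 and below for 2. Of 31 floral repressors 8 rose and 4 fell, near the background. Among 10 flower organ markers tested 4 rose, one of them the SHP1 homologue (MANES_02G085500), a MADS-box gene of fruit in Arabidopsis, which stood at 1.65, 0, 7.44 and 4.03 in May and 41.2, 33.1, 43.5 and 38.8 in October.

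**Figure D3:**
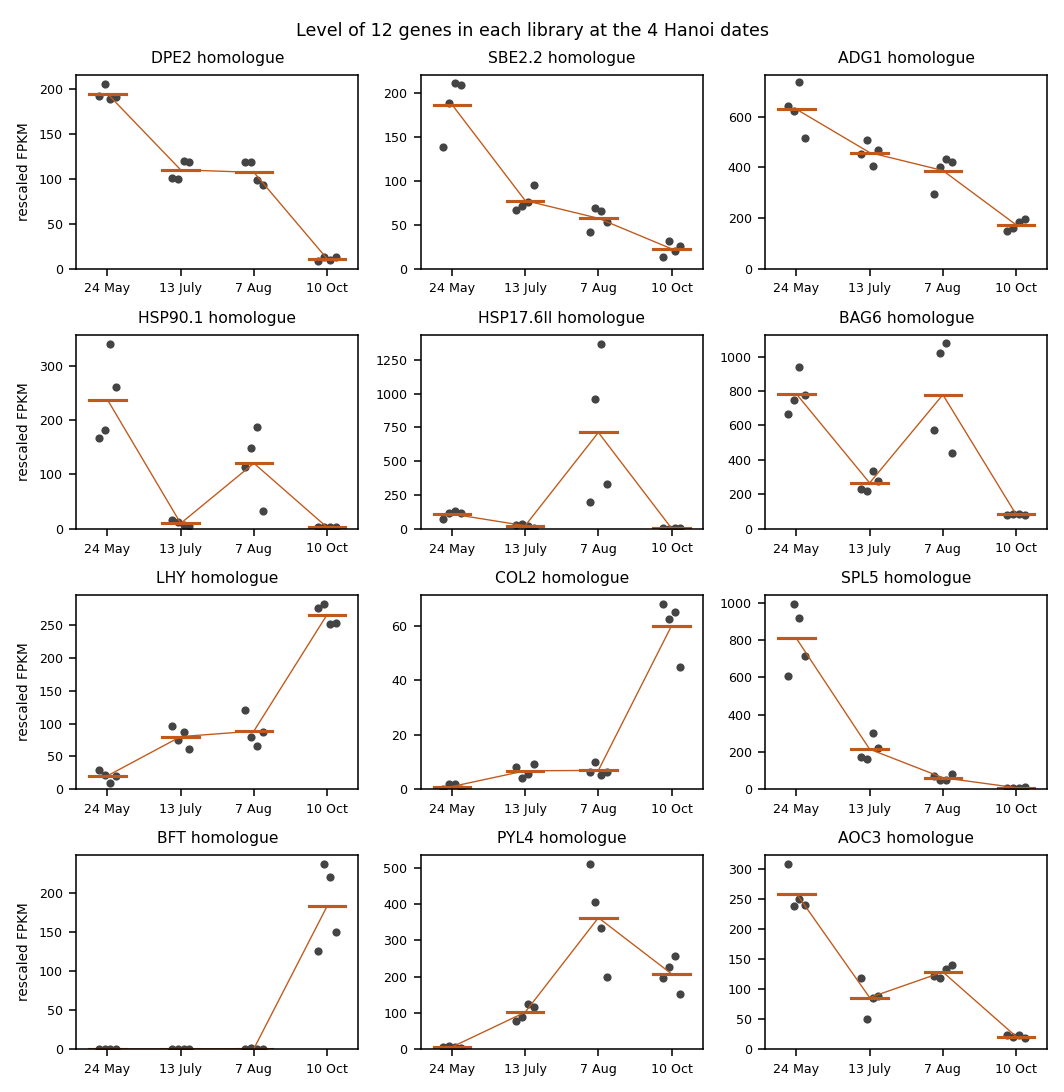
Level of 12 genes in each library (dots) at the 4 Hanoi dates, in rescaled FPKM, with the mean of 4 libraries as a bar and a line joining the means. DPE2, SBE2.2, ADG1 and SPL5 homologues step down from May to October, HSP90.1, HSP17.6II and BAG6 homologues have a second high in August, and LHY, COL2 and BFT homologues are highest in October.

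The summed level of the light-harvesting genes was highest in July, between the 2 dates compared. Of the 19 antenna genes 18 rose by 13 July, 10 fell by 7 August, and over the whole season 10 were higher and 4 lower (median 0.40). The summed antenna level was 15886 to 21409 in May, 34749 to 50626 in July and 21795 to 32054 in October, and the May and October libraries did not overlap. The LHCB2.1 homologue (MANES_01G175600), a light-harvesting protein of photosystem II with a close copy beside it in the numbering, stood at 456, 337, 252 and 229.7 in May, 1666 ± 475 in July, 1062 ± 153 in August and 2094, 1892, 1236 and 2241 in October (log2 difference 2.56 ± 0.25, adjusted p = 6.9e-11). Its October mean was above its July mean, unlike the summed level. Photosystem, electron transport and ATP synthase subunits rose at the first step for 34 of 45 and fell at the second for 21. At the last step 6 rose and 14 fell, and over the season 17 were higher and 14 lower. The PSBR homologue (MANES_03G082900), a photosystem II subunit, fell from 820.0, 531, 622 and 782 to 176, 174, 214 and 147, and the PSAN homologue (MANES_12G156000) of photosystem I rose from a mean of 113 ± 27.1 to 344 ± 58.6. In the Calvin cycle 9 of 30 rose (30.0%, near the share over all genes) and 8 fell, with a median of 0.06 that was -0.09 under median-ratio scaling. Rubisco activase rose in both copies tested: the RCA homologue (MANES_10G027600) stood at 1962, 974, 843 and 774 in May and 6647, 6744, 6029 and 5972 in October (log2 difference 2.58 ± 0.21, adjusted p = 1.3e-12). Of 31 chlorophyll genes 11 rose and 5 fell. CHLM (MANES_06G126400), a methyltransferase of chlorophyll synthesis, rose by 1.66 ± 0.18, and PORC (MANES_13G148200), a light-dependent reductase of the same pathway, fell by 2.03 ± 0.18 on the log2 scale.

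In sugar transport and metabolism 22 of 61 genes were lower and 13 higher, the latter a share (21.3%) under that over all genes (median -0.21). Carriers that import hexoses were among those that rose. The STP13 homologue (MANES_15G027300), a high-affinity hexose carrier, stood at 3.56, 0.52, 1.93 and 2.62 in May and 94.9, 84.7, 108 and 102 in October (45.1-fold, adjusted p = 9.4e-14). The STP1 homologue (MANES_17G033300), of the same family, rose from 5.8, 9.23, 8.58 and 9.89 to 146, 138, 131 and 138 (log2 difference 3.92 ± 0.32). Cell wall invertase, which splits sucrose outside the cell, rose by 3.90 ± 0.37 in the CWINV1 homologue (MANES_11G025400). The phloem sucrose loader went the other way: the SUC2 homologue (MANES_18G099400) stood at 58.9, 52.5, 47.0 and 23.7 in May and 13.8, 9.97, 5.98 and 13.8 in October (log2 difference -1.95 ± 0.23, adjusted p = 8.2e-09). The SWEET10 homologue (MANES_14G047700), a sugar exporter, fell by 3.605 ± 0.45 on the log2 scale. SUC2 is itself one of the phloem markers, 9 of 13 of which were lower. Among them the APL homologue (MANES_03G077700), the transcription factor that defines phloem, stood at 17.0, 13.8, 20.2 and 14.9 in May and 0.426, 0.594, 3.38 and 1.81 in October (log2 difference -2.91 ± 0.32).

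Nitrogen and phosphate genes were higher for 23 of 44 and lower for 3 (median 0.66). The AMT1.1 homologue (MANES_03G156400), an ammonium transporter, rose from 23.3, 21.8, 19.0 and 8.02 to 117, 129, 126 and 105 (log2 difference 2.75 ± 0.24, adjusted p = 5.9e-12). One of the 3 that fell was the NRT1.7 homologue (MANES_05G095700), a nitrate transporter of phloem loading in old leaves. It stood at 55.1, 33.2, 25.3 and 18.16 in May and 0, 0, 0.454 and 0 in October, with 3 October libraries listed at 0. Nitrite reductase (NIR1, MANES_10G071700) fell by 2.58 ± 0.27 on the log2 scale.

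The abscisic acid list as a whole was balanced, with 29 of 86 genes higher and 27 lower and a median of -0.03 that was 0.02 on the FPKM as deposited, yet its roles differed in direction. These roles were divided after values were seen, so their contrast describes these data and is not a test. Of 8 receptor genes 6 rose and none fell (median 2.42), and 6 of the 8 rose between 24 May and 13 July. The PYL4 homologue (MANES_09G110800) stood at 5.95, 6.96, 6.06 and 3.28 in May, 102 ± 22.3 in July, 363 ± 131 in August and 195, 226, 256 and 152 in October. The May libraries lay far below those of each later date (log2 difference 5.00 ± 0.39, adjusted p = 4.8e-13). The PYL6 homologue (MANES_07G135200) was listed at 0 in 3 May libraries and averaged 54.4 ± 9.91 in October. The phosphatases that the bound receptors inhibit fell for 8 of 11 and rose for 1 (median -1.15). The PP2CA homologue (MANES_07G119400), chosen after its values were seen, stood at 134, 184, 256 and 219 in May, 6.64 ± 3.61 in July and 7.4, 3.78, 9.57 and 11.0 in October (log2 difference -4.52 ± 0.47, adjusted p = 4.4e-10). NCED3 cleaves the carotenoid precursor in the rate-limiting step of abscisic acid synthesis. Its homologue MANES_15G102000, also chosen after its values were seen, fell from 12.7, 25.3, 59.1 and 31.2 to 0.187, 0, 0.395 and 0.797, and so did a second copy, MANES_03G083500 (log2 difference -4.21), whereas 9 of 17 synthesis genes rose and 3 fell. The NAC factor RD26 (MANES_03G114200) fell by 4.49 ± 0.50 on the log2 scale. The ABCG40 homologue (MANES_11G063600), an importer of the hormone with close relatives in its family, rose from 0, 1.9, 0 and 0.133 to 62.0, 47.0, 65.0 and 57.5 (adjusted p = 9.3e-17).

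Jasmonate genes were lower for 18 of 45 and higher for 7 (median -0.40). In synthesis 8 of 17 fell and 2 rose. The AOC3 homologue (MANES_01G108000), allene oxide cyclase, stood at 309.8, 238, 251 and 239.8 in May and 23.0, 19.3, 23.1 and 18.1 in October, 12.4-fold lower (log2 difference -3.58 ± 0.20, adjusted p = 9.4e-17). Of the JAZ and related repressors, which the hormone removes and induces, 7 of 16 fell and 2 rose. Their summed level did not fall, at 564.0 to 898.6 in May and 773.4 to 840.7 in October. The JAZ8 homologue (MANES_17G071600) fell from 54.1, 96.8, 21.8 and 95.4 to 1.51, 0, 0.956 and 1.8, and the JAZ2 homologue (MANES_03G042500) by 3.92 ± 0.58 on the log2 scale. JAZ8 was lowest in July (0.174 ± 0.202), rose to 5.57 ± 2.71 in August (adjusted p = 0.00026) and fell again by October (adjusted p = 0.0047). JAZ2 was also lowest in July (0.664 ± 1.14) and rose to 5.61 ± 5.85 in August (adjusted p = 0.042).

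Immune and salicylate genes fell first and rose later: 23 of 68 were lower on 13 July than on 24 May, 19 rose by 7 August and 11 by 10 October. Over the season 23 were higher and 10 lower (median 0.43). MLO proteins, which powdery mildew needs to enter in Arabidopsis, were among those that rose. The MLO12 homologue (MANES_07G104100) stood at 17.4, 15.69, 26.7 and 16.8 in May, 153 ± 30.0 in August and 365, 332, 354 and 367 in October (18.5-fold, adjusted p = 7.2e-15), and a second copy, MANES_10G044600, reached a mean of 45.8 ± 7.57. WRKY factors, some of which are also members of the immune list, followed the same order. Of 79 tested, 23 were lower at the first step, 28 higher at the second and 32 higher against 7 lower over the season (median 0.51). WRKY40 (MANES_11G066500), a repressor induced by wounding and pathogens, was among the 7 and fell by 1.97 ± 0.53 on the log2 scale (adjusted p = 0.0026, and 0.056 with a pseudocount of 0.1). Another copy, MANES_03G009300, rose but stayed low, from 0 in the 4 May libraries to 4.63, 3.64, 5.635 and 2.12 in October. In the NAC family 15 of 53 rose (28.3%, near the share over all genes) and 12 fell, and of 28 genes of sugar starvation and senescence 10 rose and 5 fell.

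Gibberellin genes were higher for 21 of 54 and lower for 10, the latter a share (18.5%) near that over all genes. The GA2 homologue (MANES_16G065800), an early enzyme of gibberellin synthesis, stood at 13.7, 12.3, 11.4 and 5.52 in May and 179, 188, 194 and 162 in October (16.9-fold, adjusted p = 3.4e-15). GA2OX1 (MANES_03G091000), an inactivating oxidase, fell by 3.33 ± 0.61 on the log2 scale. Auxin-responsive genes were higher for 23 of 76, a share (30.3%) near that over all genes, and lower for 5. The IAA3 homologue (MANES_09G152700), an auxin co-receptor repressor, was listed at 0 in the 4 May libraries and stood at 31.3, 55.9, 22.9 and 28.6 in October (adjusted p = 5.3e-07). The IAA29 homologue (MANES_14G115100) of the same family rose by 4.14 ± 0.30.

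Wall-loosening genes were lower for 17 of 47 and higher for 7 (median -0.50). The EXPA15 homologue (MANES_01G092600), an expansin, stood at 51.0, 39.2, 40.6 and 56.4 in May and 3.1, 3.74, 0.981 and 3.69 in October (16.3-fold lower, adjusted p = 1.3e-06). The XTH23 homologue (MANES_14G145800), a xyloglucan endotransglucosylase with a near copy next to it in the numbering, stood at 139.9, 139.9, 187 and 184 in May, 1.73 ± 2.08 in July and 7.93, 2.42, 13.8 and 14.7 in October. Over the expansin family the summed level was 458 to 570 in May and 133 to 169 in October. Aquaporins, the water channels of the plasma membrane and vacuole, were lower for 7 of 25 and higher for 2. In the wider family taken from the descriptions, which shares members with that list, 6 of 31 were lower, a share (19.4%) near that over all genes, and 4 higher. The PIP1A homologue (MANES_11G089300) had its highest level in August (372 ± 197) and fell below May by October, from 83.8, 66.7, 50.1 and 101 to 8.26, 3.29, 0.935 and 0.754. The TIP1.1 homologue (MANES_08G012800) of the vacuole fell by 2.13 ± 0.31 on the log2 scale. Cold and dehydration genes were lower for 9 of 25 and higher for 2.

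Secondary metabolism rose in part, with 16 of 43 flavonoid genes higher and 5 lower, and 14 of 38 phenylpropanoid genes higher and 4 lower. Among 23 genes matched to cyanogenic and specialised defence 7 rose and 4 fell, near the background in both directions. Ribosomal protein genes were higher for 142 of 352 and lower for 27 (median 0.58), and 97 of the 352 rose in the last step. Their summed level was 28429 to 30375 in May and 33960 to 38489 in October. Histone genes were higher for 30 of 79 and lower for 3 (median 0.62). The H2B homologue (MANES_11G152700) stood at 58.8, 26.1, 22.4 and 46.1 in May and 245, 276, 178 and 274 in October (log2 difference 2.72 ± 0.28, adjusted p = 4.9e-10). The replication helicase went the other way, as the MCM7 homologue (MANES_05G003100), a cell proliferation marker, stood at 4.08, 7.88, 12.7 and 3.06 in May and 0.267, 0, 0 and 0 in October.

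In Bac Kan 1860 genes (7.95%) were higher on 5 October than on 31 May and 1466 (6.26%) lower. The change differed between the sites for 6789 genes (29.0%), with the Hanoi change above in 3953 (16.9%) and below in 2836 (12.1%), by the site-by-date term of the limma fit. Of the 5924 genes that rose in Hanoi, 808 also rose in Bac Kan, 382 fell there and 3352 had a called difference. Of the 4028 that fell in Hanoi, 478 also fell in Bac Kan, 322 rose there and 2267 had a called difference.

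In Bac Kan 4 of the 54 starch genes were higher and 6 lower, and the Hanoi change was below that of Bac Kan for 32 and above for none. For DPE2 the Bac Kan log2 difference was -0.63 and the difference between the sites -3.38 ± 0.26 (adjusted p = 1.7e-12). For SBE2.2 these were -0.34 and -2.69 ± 0.29 (adjusted p = 3.5e-09), and for BAM1, which rose in Bac Kan, 2.19 and -4.17 ± 0.43 (adjusted p = 1.5e-09). Part of the heat shock genes went in opposite directions. Of the 48 of 86 that were lower in Hanoi, 20 were higher in Bac Kan, 3 were also lower there and the rest were not called there. In Bac Kan 30 of the 86 rose and 10 fell, and the Hanoi change was below for 50 and above for 5. HSP90.1 (MANES_06G152800) stood at 125, 209.8, 76.3 and 69.4 in Bac Kan on 31 May and 1317, 851, 1466 and 134 on 5 October, a difference between the sites of -8.55 ± 0.74 (adjusted p = 3e-11). The factor HSFA2 (MANES_03G049500) had a Bac Kan log2 difference of 2.302 and a difference between the sites of -7.90 ± 0.84 (adjusted p = 3.1e-09). The cochaperone ATBAG5 (MANES_13G007700) stood at 12.2, 5.11, 4.1 and 2.11 and then 292, 148, 1354 and 56.2 in Bac Kan, and its difference of -10.60 ± 1.07 (adjusted p = 9.1e-10) was the largest below 0 among the genes the rule considered, followed by EDL3 (MANES_05G073600) at -8.70 ± 0.68 (adjusted p = 3.2e-12).

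Abscisic acid receptors and phosphatases, groups divided after values were seen, also changed differently at the 2 sites. In Bac Kan none of the 8 receptors was called and 6 of 11 phosphatases rose, and the Hanoi change was above for 6 receptors and below for 8 phosphatases. The receptor PYL4 (MANES_09G110800) had a difference between the sites of 5.60 ± 0.56 (adjusted p = 7.1e-10), the phosphatase PP2CA (MANES_07G119400) one of -6.53 ± 0.66 (adjusted p = 1.2e-09) and NCED3 (MANES_15G102000) one of -6.12 ± 0.66 (adjusted p = 3.8e-09). Antenna genes fell in Bac Kan for 16 of 19, 9 of them genes that rose in Hanoi. LHCB2.1 (MANES_01G175600) had a Bac Kan log2 difference of -1.12 and a difference between the sites of 3.68 ± 0.35 (adjusted p = 2.4e-10). The clock-controlled CCR2 (MANES_15G163200) fell by 1.94 on the log2 scale in Bac Kan, a difference of 4.46 ± 0.36 (adjusted p = 7.3e-12). MLP423 (MANES_05G089800), of the major latex protein family, stood at 60.2, 192, 563 and 167 and then 1349, 1844, 1867 and 1612 in Hanoi. In Bac Kan it stood at 3287, 3025, 2399 and 1853 and then 182, 267, 277 and 281, a difference of 6.55 ± 0.71 (adjusted p = 4.3e-09). Besides MLP423 and PYL4, the largest differences above 0 among the genes that rule considered were in TOM6 (MANES_17G097600) and ARL2 (MANES_15G178900), both listed at 0 in the 4 May libraries of Hanoi. TOM6, of the outer mitochondrial membrane, stood at 75.9, 144, 39.3 and 63.4 in Hanoi in October, and in Bac Kan at 166, 106, 0 and 52.8 in May and 0, 0, 0 and 56.4 in October. Its difference between the sites was 9.70 ± 3.09 (adjusted p = 0.016). Its Hanoi change alone had an adjusted p of 0.02, or 0.0566 with group weights, and its change over the 4 Hanoi dates was not called (adjusted p = 0.086). Ribosomal protein genes were above in Hanoi for 137 and below for 23, and in Bac Kan 14 rose and 48 fell. Higher at both sites were 5 of 14 floral integrators, 8 of 44 nitrogen and phosphate genes and 7 of 43 flavonoid genes. The same held for 808 of all 23405 genes tested. Of these 3 lists the flavonoids alone held a gene called in opposite directions (1 gene), and their Hanoi change was above for 8 and below for 10. Higher in Hanoi and lower in Bac Kan were 2 of 31 floral repressors and 3 of 43 photoperiod genes, beside 382 of all genes tested. These counts are too small to describe either list. A further 4 photoperiod genes were higher at both sites.

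**Figure D4:**
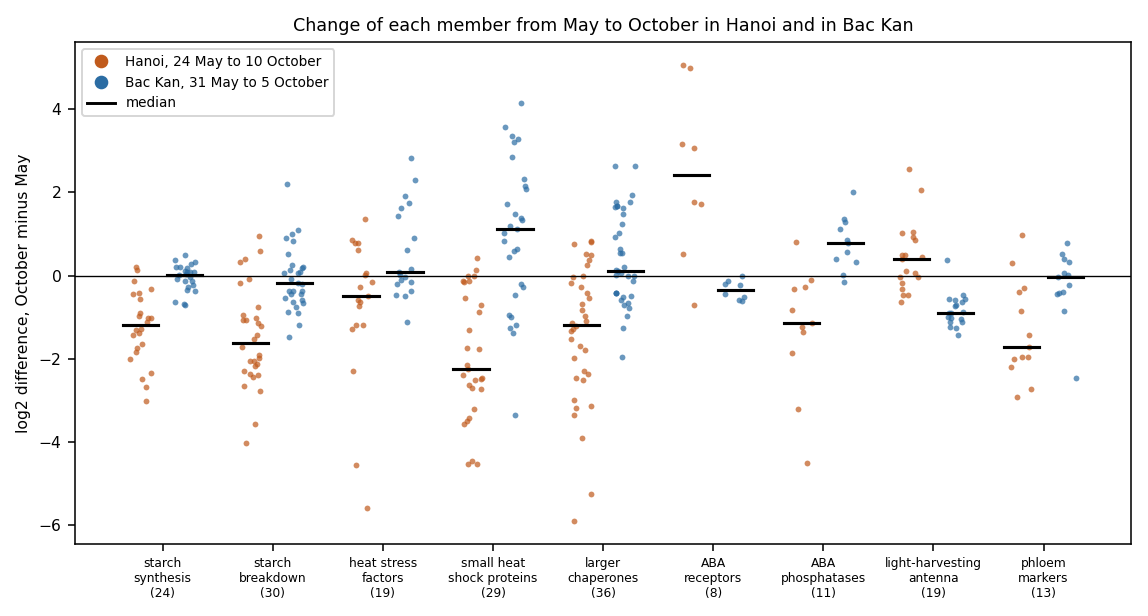
Log2 difference of each tested member of 9 gene groups from 24 May to 10 October in Hanoi (orange) and from 31 May to 5 October in Bac Kan (blue), with the median as a black bar and the number of genes in brackets. Small heat shock proteins have a median of -2.24 in Hanoi and 1.13 in Bac Kan, receptors of abscisic acid 2.42 and -0.34, and starch synthesis genes -1.20 and 0.02. The starch, heat shock and abscisic acid groups were divided after values were seen.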

How the data were processed

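Leaf RNA of 44 cassava libraries was deposited as FPKM per transcript, fragments scaled for transcript length and library size, in 11 tables of 41491 transcripts. The authors aligned reads with TopHat2, per the submitters' processing notes, and the version, the quantifier, the genome build, the annotation and strand use are not given in the sources used here. The number of reads behind an FPKM value is unknown, and intervals for counting error are not given. Titles number the samples of a date but columns do not, so samples were not paired. 1 sample column that repeats a library of another table was not used. No 2 libraries held equal values.

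FPKM were summed per gene ID (34120), rescaled to 1000000 per library and filtered to a level of 1 in 4 or more of all 44 libraries, and log2(value + 1) was fitted with limma 3.58.1 in R 4.3.3, 1 mean for each of the 11 groups, with trended empirical Bayes variances. Calls are two-sided at a Benjamini-Hochberg adjusted p under 0.05 over 23405 genes. Adjusted p values in the text are from this fit unless another setting is named, and library measures were compared by exact permutation tests. The scripts were tested on simulated data. Relative depth was estimated on 3547 genes from how far apart low values lie.

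Genes named were the 12 largest rises and falls with a symbol, up to 4 called members per list, the 4 largest differences between sites each way (all with separated libraries and a mean of 5 or more at the higher date), and the FT family with SOC1, FUL, AP1, LFY, CO, GI, FKF1, LHY and TOC1. Not all of these are printed above. The comparison, lists and rule were chosen with earlier results of these data known, and the division of lists into roles was made after values were seen. Of 31 lists of 731 Arabidopsis genes, 1526 cassava genes matched and 1122 were tested. Families (WRKY, NAC, ribosomal, expansin, aquaporin, histone) came from deposited descriptions. Alternatives changed the pseudocount, filter, scaling, transcript choice, libraries fitted and weights, and left out each library. No sequence is shown.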

Additional observations from a re-analysis of the deposited data

Results flagged for a closer look

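Of 116 groups of 4 libraries examined for the genes with printed values, 11 held a library standing apart by Dixon's ratio of its gap to the range. About 1 in 20 would do so by chance if values were normally distributed. For LTP3, CPuORF9, MCM7 and NRT1.7 the others were listed at 0, which fixes the ratio at its maximum. On 24 May the highest library stood apart for LTP3 (0.684, the others listed at 0), CPuORF9 (157.5, the others listed at 0), ABCG40 (1.90), MLO12 (26.7), DPE2 (206.0 beside 189.3 to 191.7), AMY3 (121.5 beside 85.5 to 90.9) and RCA (1962 beside 774 to 974), and the lowest for BAM9 (6.55 beside 16.8 to 18.4). On 10 October the highest stood apart for MCM7 (0.267) and NRT1.7 (0.454), the others listed at 0, and for ATBAG5 (3.24 beside 0.387 to 0.494). Among 24 groups of library measures, the number of genes at 1 or more had a high October library (19406), and the mean correlation with the own group had a low May library (0.866 beside 0.876).

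The change from May to October differed between Hanoi and Bac Kan for 6789 genes by the site-by-date term. Among the 14 genes given in the report for this difference, the Hanoi change was above that of Bac Kan for TOM6 (9.70 on the log2 scale), MLP423 (6.55), PYL4 (5.60), CCR2 (4.46) and LHCB2.1 (3.68). It was below for ATBAG5 (-10.60), EDL3 (-8.70), HSP90.1 (-8.55), HSFA2 (-7.90), PP2CA (-6.53), NCED3 (-6.12), BAM1 (-4.17), DPE2 (-3.38) and SBE2.2 (-2.69).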

How the results depend on the processing

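The 4 main counts stayed within 1.5 times their value under all alternatives run. Genes called higher in October were 4599 to 6005 under 9 other settings (4599 with the 8 libraries alone) and 5358 to 5742 with 1 library left out. Genes called lower were 3124 to 4702 (4702 with median-ratio scaling) and 3585 to 4019. Genes that changed over the 4 Hanoi dates were 9647 to 11841 and 10980 to 11737, and genes whose change differed between the sites 5898 to 6953 and 6161 to 6818. Of 181 genes named by rule or in the text and tested, 173 were called, 10 of these lost the call under at least 1 of 17 alternatives, and none changed direction. Medians near 0 changed sign with the scaling for the abscisic acid, Calvin cycle and mesophyll lists (0.10, and -0.06 with median-ratio scaling). No paired analysis was possible because the columns carry no replicate number, so the planned replicate block was not run. With FPKM alone, the depth behind low values cannot be given, and May libraries were both shallower and more variable than October libraries.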
